A study of Homo sapiens with 18 samples.

Results

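The genes described here encode cyclooxygenases, prostaglandin E2 synthases, prostacyclin synthase, 2 prostaglandin E2 receptors and an enzyme that inactivates prostaglandins: PTGS1, PTGS2, PTGES, PTGES2, PTGES3, PTGIS, PTGER2, PTGER4 and HPGD. They were chosen by their place in the pathway with the measured counts of these libraries known, among them those of PTGES in Jag1WT and Jag1KO. All 9 had a row in the table, which holds 21119 genes with a symbol. The RNA came from MDA-MB-231, a human triple-negative breast cancer cell line, grown in Matrigel for 7 days from 50000 seeded cells, with 3 replicate cultures in each of 6 groups. Jag1WT was the parental line. Jag1KO pooled several Cas9 clones, each grown from a single cell, with a guide to JAG1, the gene of the Notch ligand Jagged1, so this group was neither 1 clone nor the whole parental population. Jag1KO + rescue carried a Jagged1 cDNA on a pcDNA3.1 plasmid in the Jag1KO cells and Jag1KO + ctrl the empty plasmid, both under G418. siCtrl was the parental line with a nontargeting siRNA and siJag1 the parental line with a cocktail of siRNAs to Jagged1, transfected before seeding. Every group was thus the same cell line in the same gel.

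Prostaglandins are made when a phospholipase frees arachidonic acid from membranes, a cyclooxygenase turns it into prostaglandin H2, and a terminal synthase turns that into one of several end products. Prostaglandin E2, the product of the PGE synthases, leaves the cell and acts through the receptors EP1 to EP4, of which EP2 and EP4 raise cAMP. In tumors the inducible cyclooxygenase is often high, and prostaglandin E2 is known for effects on growth, invasion and immune cells.

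Sequencing gave 10326977 to 18321475 counted reads per library. JAG1 itself was between 110 and 205 CPM (read counts scaled to a common library size after the authors' TMM normalization) in the 9 libraries of the Jag1KO, Jag1KO + ctrl and siJag1 groups and between 433 and 657 CPM in the 9 libraries of the other groups, with no overlap. The edited gene thus still gave RNA, and RNA says nothing of how much of it encoded the protein. VIM, CD44 and AXL, which mark this mesenchymal line, were at 2184, 396 and 810 CPM or more in every library, whereas SPARC, also looked for, stayed at or under 1.24 CPM. Of the luminal and epithelial genes, ESR1 stayed at or under 0.136 CPM, while KRT18 lay between 127 and 162 CPM and ERBB2 between 32.5 and 60.0 CPM. Of the leukocyte markers, PTPRC stayed at or under 0.196 CPM and CD3E at or under 0.202 CPM, while CD68 lay between 88.9 and 209 CPM. Libraries also differed in proliferation. A growth index, the mean log2(CPM + 1) of 97 genes of S and G2/M phase, ran from 4.10 to 6.09. It was above 5.5 in Jag1KO replicates 2 and 3 (5.55 and 5.67), Jag1KO + ctrl replicates 1 and 2 (5.72 and 6.09) and siJag1 replicate 2 (6.07), and at or under 5.10 in the other 13 libraries, among them every library of the Jag1WT, Jag1KO + rescue and siCtrl groups. Growth state and JAG1 status therefore went together in part, and its share in the results below was not tested except where values are given.

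Per kilobase of gene length, the only scale on which different genes can be compared, PTGS2 was by far the most abundant member, with a mean of 680 over the 18 libraries (CPM per kilobase), followed by PTGES3 at 70.8, PTGES at 14.9 and PTGES2 at 12.8. PTGER4 was at 1.14, HPGD at 0.416, PTGER2 at 0.414 and PTGS1 at 0.240. By this measure PTGS2 was at rank 68 and PTGES at rank 3938 of 21119 genes. Cells with this profile held RNA for the inducible cyclooxygenase and all PGE synthases, little RNA for the constitutive cyclooxygenase, and little for the receptors and the degrading enzyme.

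**Figure D1:**
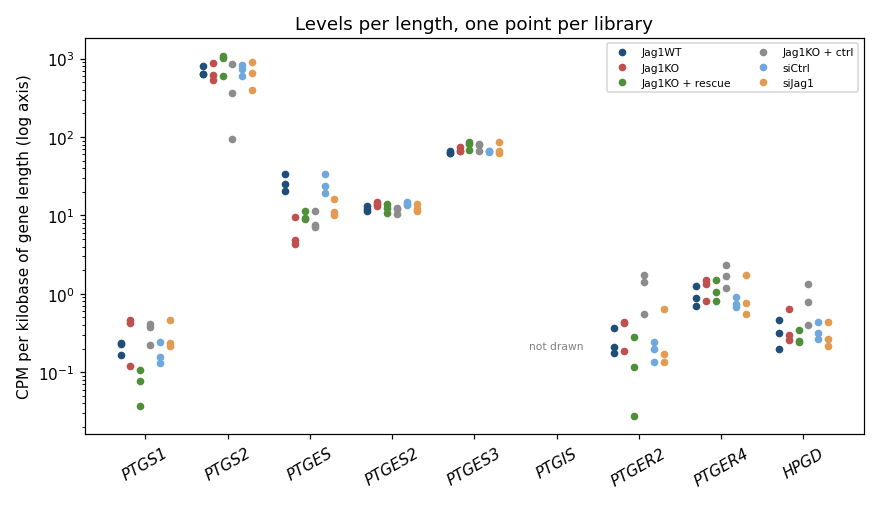
CPM per kilobase of gene length (log axis) of the members, with 1 point per library and 1 color per group. PTGS2 lies far above the others, PTGES is the synthase whose groups lie farthest apart, and PTGIS is not drawn because it had 1 read or none in every library.

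PTGES, the inducible microsomal PGE synthase on chromosome 9 (hg38, chr9:129738331-129753042, minus strand), was the member called between Jag1WT and Jag1KO. It measured 63.9, 38.6 and 47.5 CPM in Jag1WT replicates 1 to 3 and 18.01, 9.35 and 8.22 CPM in the Jag1KO replicates, from 86 to 1012 reads per library. All 3 parental libraries were above all 3 knockout libraries, and the mean in Jag1KO (11.9 ± 5.36 CPM, SD, n = 3) was 23.7% of that in Jag1WT (50.0 ± 12.8 CPM, SD, n = 3). In such bulk RNA, fewer cells with PTGES and less PTGES RNA per cell cannot be told apart. In siCtrl it measured 63.4, 36.3 and 45.2 CPM and in siJag1 30.8, 19.3 and 21.2 CPM. Here too the groups did not overlap (1 of 7 members, against 10.5% of all genes tested), and the knockdown mean (23.8 ± 6.15 CPM, SD, n = 3) was 49.2% of the siCtrl mean (48.3 ± 13.8 CPM, SD, n = 3). In Jag1KO + rescue it measured 17.4, 17.0 and 21.8 CPM and in Jag1KO + ctrl 21.5, 13.7 and 14.3 CPM. These groups overlapped, and the rescue mean of 18.7 CPM stayed below the lowest library of Jag1WT although JAG1 RNA in the rescue libraries (534 to 657 CPM) reached that in Jag1WT (433 to 585 CPM).

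**Figure D2:**
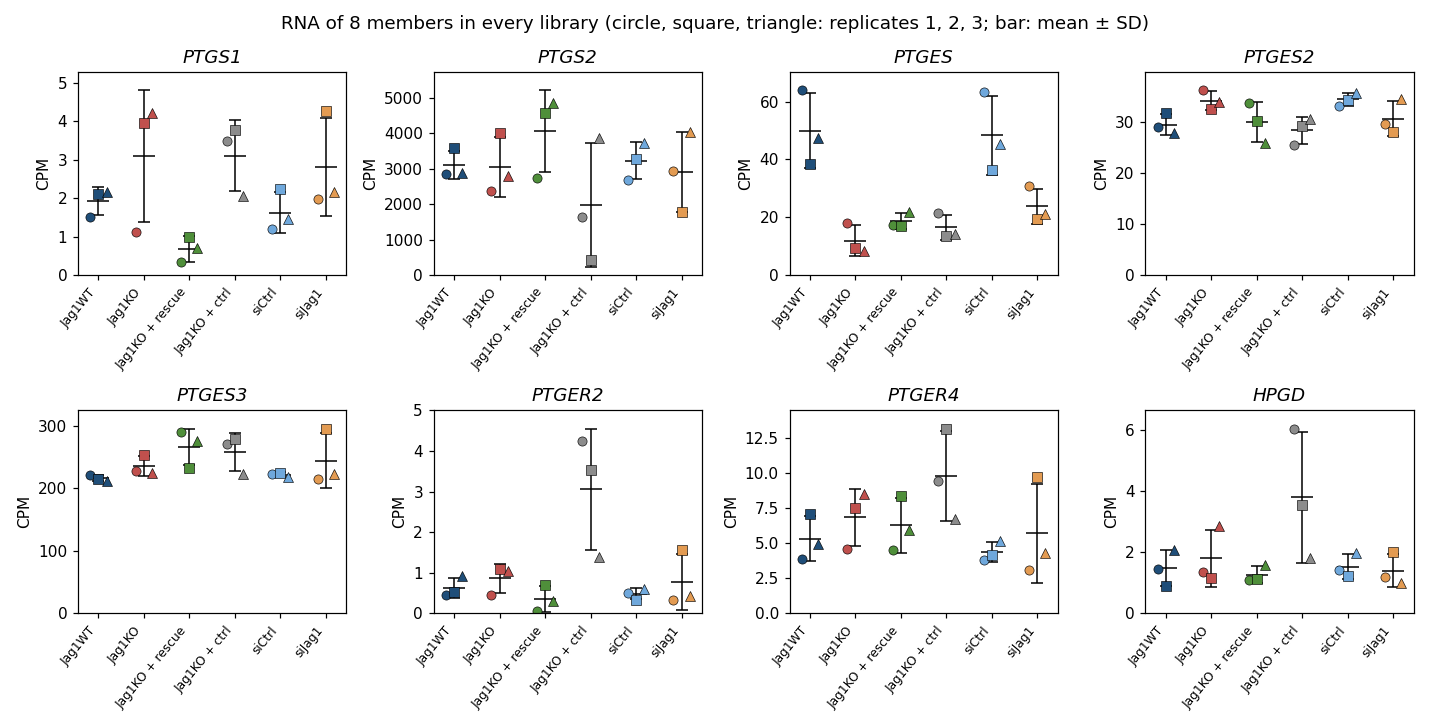
CPM of 8 members in every library (circle, square and triangle for replicates 1, 2 and 3; horizontal bar, mean; error bar, SD; each y axis starts at 0). PTGES is high in Jag1WT and siCtrl and lies between 8.22 and 30.8 CPM in the other groups. Its means fall from siJag1 through Jag1KO + rescue and Jag1KO + ctrl to Jag1KO, with overlap between neighbors. PTGS2 varies as much within Jag1KO + ctrl as between groups.

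A member or other gene counted as called in edgeR's quasi-likelihood test when its Benjamini-Hochberg adjusted p over all tested genes was under 0.05 and its fold change over 1.5. Between Jag1WT and Jag1KO, 1 of the 7 members tested was called, PTGES, against 0.714% of all 12879 genes tested. Its log2 fold change was 2.06 (SE 0.313, edgeR adjusted p = 0.0322), Jag1WT over Jag1KO. The members were chosen with earlier results of these data known, so these counts and p-values describe the fit and are no independent support. The call was lost when any of the 3 Jag1WT libraries or Jag1KO replicate 2 or 3 was left out (edgeR adjusted p from 0.0785 to 0.165). It was kept without Jag1KO replicate 1, in a fit that called 952 of 12879 genes. Over these fits the log2 fold change ran from 1.85 to 2.49. Across the other settings tried, the adjusted p ran from 9.13e-09 to 0.0335 and the call held.

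Between siCtrl and siJag1, 0 of 7 members were called by edgeR, against 0.0157% of 12774 genes. The log2 fold change of PTGES was 1.03 (SE 0.250, edgeR adjusted p = 0.970) in this fit, which did not use the replicate number. PTGES in siJag1 stood at 48.6%, 53.2% and 46.9% of the siCtrl library of the same replicate number. With the replicate number as a block the edgeR adjusted p was 0.0507, and DESeq2 called PTGES at an adjusted p of 0.0351. Over all settings other than leaving out a library it ran from 0.0351 to 0.984. At an unadjusted p under 0.05, 489 genes and 1 of the 7 members, PTGES, passed in this comparison, and limma called 0 members. Between Jag1KO + rescue and Jag1KO + ctrl, where 0 of 8 members were called against 0.00778% of 12850 genes, PTGES differed by a log2 fold change of 0.18 (SE 0.220, edgeR adjusted p = 0.580). At an unadjusted p under 0.05 there were 3 of the 8 members and 3954 genes in all.

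The size of the PTGES difference was compared between the interventions. The log2 fold change was larger by 1.91 (SE 0.413) between Jag1WT and Jag1KO than between Jag1KO + rescue and Jag1KO + ctrl, with an edgeR adjusted p of 0.0577, just outside the threshold of 0.05 used for interactions, where 0.555% of 12804 genes passed. It passed with no filter on low counts (edgeR adjusted p = 0.0385) and with the replicate block (0.0341). In these fits 183 of 20577 and 51 of 12804 genes passed. Without Jag1KO replicate 1 (0.0159) or Jag1KO + ctrl replicate 3 (0.0105) it also passed, as did 53 and 2545 of 12804 genes. Against the knockdown the log2 fold change was larger by 1.03 (SE 0.431) in the knockout (edgeR adjusted p = 0.999; 0.110% of 12765 genes passed). With the block its edgeR adjusted p was 0.0459, and 23 of 12765 genes passed. The knockdown and the rescue differed by 0.87 (SE 0.354, edgeR adjusted p = 0.210), where 0.0940% of 12761 genes passed. In the main edgeR fits of these 3 interactions 0 of 7 members passed.

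The PTGES values at like growth index were as follows. Jag1WT replicates 1 and 3 and Jag1KO replicate 1 had growth indices of 4.14, 4.10 and 4.11, and PTGES measured 63.9, 47.5 and 18.01 CPM in them. Likewise siCtrl replicates 1 and 3 (4.18 and 4.48) held 63.4 and 45.2 CPM, and siJag1 replicates 1 and 3 (4.32 and 4.41) held 30.8 and 21.2 CPM. Jag1KO + rescue replicates 1 and 3 (4.18 and 4.23), in which JAG1 was at 534 and 646 CPM, held 17.4 and 21.8 CPM of PTGES. Replicate 1 lay below the low-JAG1 libraries just named (18.01 to 30.8 CPM) and replicate 3 within their range. Jag1KO + ctrl replicate 3 (4.41) held 14.3 CPM. Within each of the 6 groups the replicate of highest growth index had the lowest PTGES, and the part of growth state in the PTGES values was not tested.

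**Figure D3:**
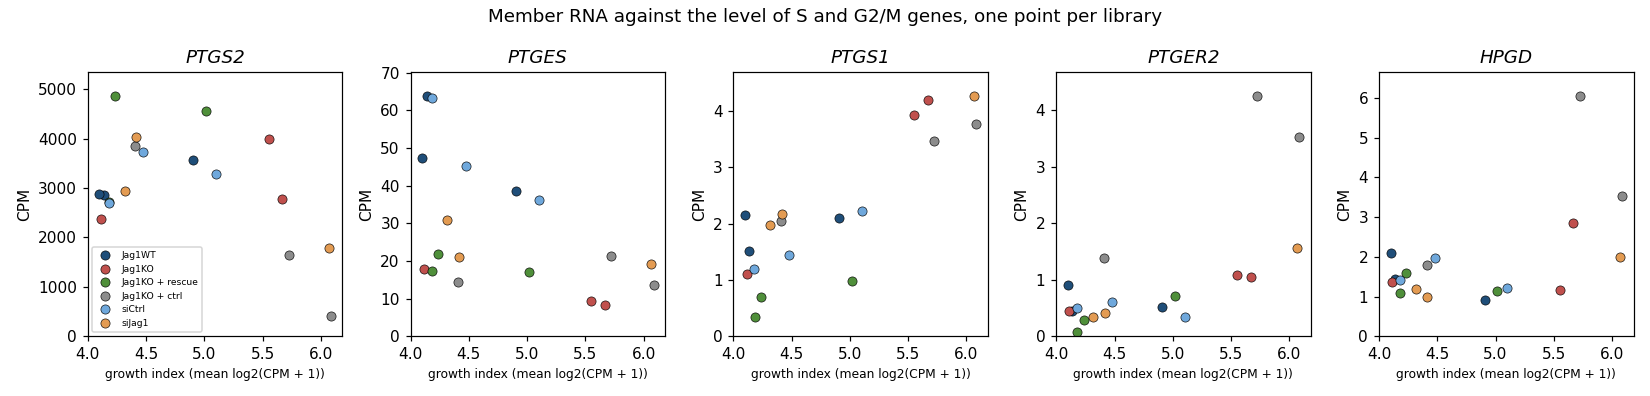
CPM of 5 members (y axis from 0) against the growth index, the mean log2(CPM + 1) of 97 S and G2/M genes, with 1 point per library. At indices from 4.1 to 4.5, PTGES separates Jag1WT and siCtrl (45.2 to 63.9 CPM) from the other groups (14.3 to 30.8 CPM), and the libraries with the highest PTGS1, PTGER2 and HPGD have indices above 5.5.

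The 250 bases before the start site of PTGES are shown because PTGES was the member called. They are from RefSeq (GRCh38.p14, chr9:129753043-129753292, minus strand, upstream of the gene), written 5′ to 3′, with capitals marking 2 GC boxes and a match to the EGR1 motif that overlaps the second of them:
PTGES: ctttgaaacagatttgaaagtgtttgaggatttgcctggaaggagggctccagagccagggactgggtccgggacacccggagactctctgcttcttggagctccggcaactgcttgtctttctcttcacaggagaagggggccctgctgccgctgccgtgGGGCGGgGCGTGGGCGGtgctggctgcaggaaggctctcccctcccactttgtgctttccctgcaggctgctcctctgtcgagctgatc
The EGR1 motif searched was GCGTGGGCG and the GC box GGGCGG, each on both strands. The EGR1 letters lay at −82 to −74 and the GC boxes at −89 to −84 and −78 to −73 from the start site. Of 35116 promoter windows of the same length, 0.720% held the EGR1 letters and 42.6% a GC box. Among the members, PTGES2 was the other one with the EGR1 letters. EGR1, an immediate early transcription factor gene chosen after its values were seen, measured 74.1, 245 and 95.5 CPM in Jag1WT and 164, 394 and 206 CPM in Jag1KO, the opposite order to PTGES in the group means, and was not called (log2 fold change −0.89, SE 0.480, edgeR adjusted p = 0.647). In the other JAG1 comparisons the group means of EGR1 had the same order as those of PTGES, also uncalled. They were 516 CPM in Jag1KO + rescue and 153 CPM in Jag1KO + ctrl (log2 fold change 1.75, SE 0.586, edgeR adjusted p = 0.117). In siCtrl and siJag1 they were 151 and 135 CPM (log2 fold change 0.16, SE 0.484, edgeR adjusted p = 0.985). The letters TGGGAA, bound by the Notch effector RBPJ, were not in the PTGES window on either strand, and 20.8% of the windows held them. Such matches are descriptions of sequence only.

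PTGS2 encodes the inducible cyclooxygenase, COX-2 (chr1:186671791-186680922, minus strand). It measured 2852, 3571 and 2886 CPM in Jag1WT and 2370, 4002 and 2782 CPM in Jag1KO. The groups overlapped throughout, and the log2 fold change was 0.02 (SE 0.210, edgeR adjusted p = 0.985), which took the other sign in 3 of the 6 fits with 1 library left out. It measured 2693, 3277 and 3721 CPM in siCtrl and 2936, 1781 and 4025 CPM in siJag1, again overlapping (log2 fold change 0.16, SE 0.281, edgeR adjusted p = 0.980). In Jag1KO + rescue it measured 2728, 4565 and 4866 CPM and in Jag1KO + ctrl 1644, 419 and 3859 CPM. The Jag1KO + ctrl libraries alone spanned more than the rest of the 18 libraries did between their lowest and highest, and replicate 2 at 419 CPM was the lowest of all. The log2 fold change was 1.03 (SE 0.669, edgeR adjusted p = 0.308), and without Jag1KO + ctrl replicate 3, the library of that group with the low growth index (4.41), it was 1.98 with an adjusted p of 0.0330. The fit without that library called 29.0% of all genes. The adjusted p over the other settings ran from 0.132 to 0.387. The libraries with the lowest PTGS2, Jag1KO + ctrl replicates 2 and 1 and siJag1 replicate 2, had growth indices of 6.09, 5.72 and 6.07, but Jag1KO replicate 2 held 4002 CPM at 5.55, and the part of growth state in the PTGS2 values was not tested.

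A stretch of 30 bases of the PTGS2 promoter (RefSeq, GRCh38.p14, chr1:186680465-186680494, minus strand, 5′ to 3′) is shown for the cAMP response element half-site, CGTCA, in capitals, since EP2 and EP4 signal through cAMP:
PTGS2: gaaacagtcatttCGTCAcatgggcttggt
The half-site lay at −58 to −54 from the RefSeq start site, inside the longer GENCODE model of the gene. Searched on both strands, the letters were in 21.2% of all windows and in none of the PTGES window. Of the 8 members with a promoter in the table, PTGIS being the one without, PTGES3, PTGER2 and HPGD also held it.

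PTGS1, the constitutive cyclooxygenase COX-1 (chr9:122370530-122395703, plus strand), was near the detection filter of 1 CPM, with 5 to 79 reads per library. It measured 0.341, 0.990 and 0.703 CPM in Jag1KO + rescue and 3.48, 3.78 and 2.05 CPM in Jag1KO + ctrl. All rescue libraries were below all control libraries, and below every library of the other groups. The log2 fold change was −2.19 (SE 0.438, edgeR adjusted p = 0.104), for a gene that passed the filter here through the Jag1KO + ctrl libraries alone, all rescue libraries being under 1 CPM. In Jag1WT it measured 1.51, 2.10 and 2.15 CPM against 1.11, 3.94 and 4.20 CPM in Jag1KO, and in siCtrl 1.20, 2.23 and 1.45 CPM against 1.98, 4.27 and 2.17 CPM in siJag1, with overlap in both (log2 fold changes −0.66, SE 0.477, and −0.79, SE 0.392, edgeR adjusted p = 0.731 and 0.970). Without Jag1KO replicate 1, PTGS1 was called lower in Jag1WT (log2 fold change −1.09, edgeR adjusted p = 0.0369). That fit called 952 of 12879 genes, 617 of them lower. The 5 libraries with growth indices above 5.5 were also the 5 with the highest PTGS1, at 3.48 to 4.27 CPM.

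PTGES2 and PTGES3 encode further PGE synthases, PTGES3 being the cytosolic one and also p23, a co-chaperone of HSP90. PTGES2 (chr9:128120693-128128462) lay between 25.4 and 36.1 CPM and PTGES3 (chr12:56663341-56688408) between 212 and 295 CPM over all 18 libraries. PTGES2 was at 28.9, 31.6 and 27.8 CPM in Jag1WT and at 36.1, 32.4 and 33.8 CPM in Jag1KO, which did not overlap but differed little (log2 fold change −0.22, SE 0.119, edgeR adjusted p = 0.648). PTGES3 was at 222, 215 and 212 CPM in Jag1WT and at 227, 254 and 225 CPM in Jag1KO, also without overlap (log2 fold change −0.13, SE 0.0965, edgeR adjusted p = 0.751). With PTGES this made 3 of 7 members tested whose Jag1WT and Jag1KO libraries did not overlap, against 13.8% of all genes tested. In the other JAG1 comparisons the log2 fold changes of PTGES2 were 0.07 and 0.17 and those of PTGES3 0.04 and −0.13, all uncalled. Per length, PTGES stood at 2.19 ± 0.634 times PTGES2 in Jag1WT and at 1.81 ± 0.568 times in siCtrl (SD, n = 3), but at 0.439 ± 0.174 times in Jag1KO, 0.820 ± 0.226 times in Jag1KO + rescue, 0.760 ± 0.277 times in Jag1KO + ctrl and 1.00 ± 0.293 times in siJag1. PTGES was thus the more abundant of this pair in all 6 libraries of Jag1WT and siCtrl (at least 1.35 times). Reads of PTGES2 and of its antisense gene PTGES2-AS1 (2 to 13 reads per library) cannot be assigned without knowing whether counting used the strand, and PTGES3 shares sequence with processed copies.

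PTGIS, prostacyclin synthase (chr20:49503874-49568137, minus strand), had 1 read in each of 3 libraries, 1 of Jag1KO + ctrl, 1 of siCtrl and 1 of siJag1, and 0 in the other 15. A count of 0 allows up to 3 reads per library, so it was not detectable at this depth and was not tested.

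**Figure D4:**
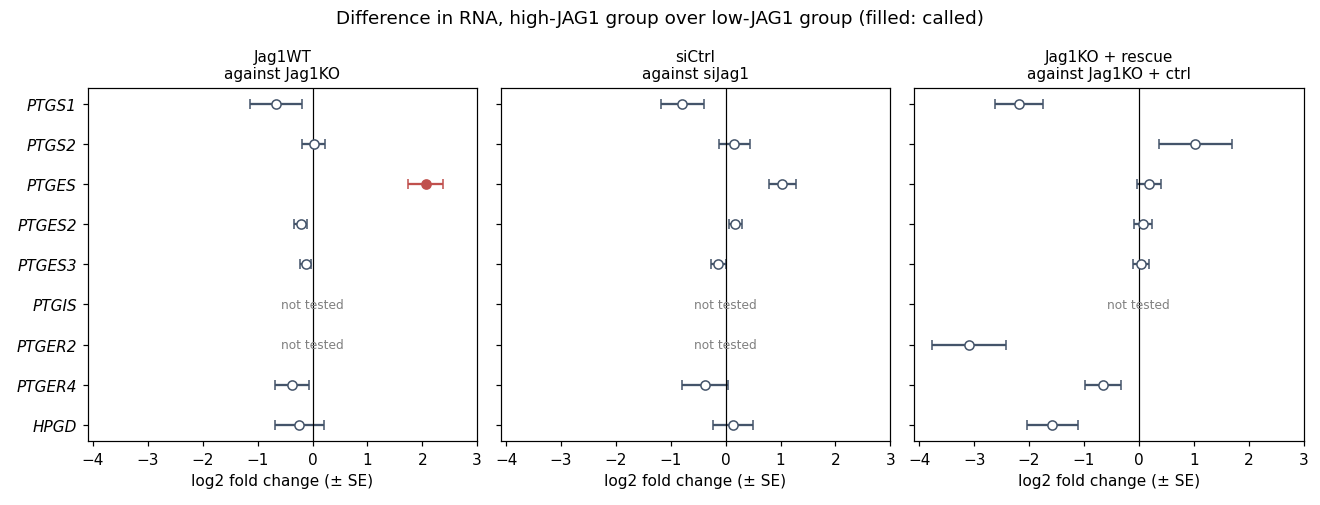
Log2 fold changes (x axis, with SE as error bars) of the members in the 3 comparisons of groups with high over low JAG1, from edgeR. Filled red marks a call. PTGES in Jag1WT against Jag1KO (2.06) is the filled point, and PTGS1, PTGER2 and HPGD lie farthest to the left in Jag1KO + rescue against Jag1KO + ctrl.

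The receptors had low RNA. PTGER2, the EP2 gene (chr14:52314305-52328598, plus strand), measured 0.0681, 0.707 and 0.293 CPM in Jag1KO + rescue, from 1, 10 and 5 reads, and 4.26, 3.54 and 1.38 CPM in Jag1KO + ctrl, from 71, 59 and 23 reads. The groups did not overlap, and the log2 fold change was −3.10 (SE 0.681, edgeR adjusted p = 0.104). PTGER2 passed the filter of 1 CPM in this comparison through the Jag1KO + ctrl libraries alone, the group in which it was high, so its place among the tested genes is not independent of that difference. PTGER2 was at 0.442 to 0.913 CPM in Jag1WT, 0.457 to 1.08 CPM in Jag1KO and 0.337 to 0.609 CPM in siCtrl, and at 0.340, 1.57 and 0.420 CPM in siJag1, too low for the test in the comparisons of Jag1WT with Jag1KO and of siCtrl with siJag1. All Jag1KO + ctrl libraries were above all libraries of Jag1KO, the cells they were made from (2 of 8 members did not overlap, with PTGES2, against 10.1% of all genes; log2 fold change 1.83, SE 0.525, edgeR adjusted p = 0.757). With all libraries of these 2 groups of the same genotype, 0 of 12956 genes were called (0.0%), and 753 had an unadjusted p under 0.05. Without Jag1KO + ctrl replicate 3 the edgeR adjusted p of PTGER2 was 0.0452, in a fit that called 310 of 12956 genes.

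PTGER4, the EP4 gene (chr5:40679915-40693735, plus strand), was higher than PTGER2 per length. It measured 3.91, 7.07 and 4.96 CPM in Jag1WT and 4.57, 7.49 and 8.50 CPM in the knockout. It measured 4.50, 8.34 and 5.98 CPM in Jag1KO + rescue, 9.47, 13.2 and 6.74 CPM in Jag1KO + ctrl, 3.82, 4.18 and 5.18 CPM in siCtrl and 3.06, 9.73 and 4.34 CPM in siJag1. The groups overlapped in all 3 JAG1 comparisons, with log2 fold changes of −0.37 (SE 0.313), −0.65 (SE 0.328) and −0.38 (SE 0.420) for knockout, rescue and knockdown in that order (edgeR adjusted p = 0.782, 0.211 and 0.970). The highest libraries, at 13.2, 9.73 and 9.47 CPM, had growth indices of 6.09, 6.07 and 5.72. Reads of PTGER4 may be shared with a pseudogene, counted here as PTGER4P2-CDK2AP2P2.

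HPGD, the dehydrogenase that inactivates prostaglandin E2 (chr4:174490175-174523154, minus strand), measured 1.09, 1.13 and 1.58 CPM in Jag1KO + rescue and 6.06, 3.54 and 1.81 CPM in Jag1KO + ctrl, without overlap (log2 fold change −1.57, SE 0.459, edgeR adjusted p = 0.107). It measured 1.45, 0.902 and 2.09 CPM in Jag1WT against 1.37, 1.16 and 2.87 CPM in Jag1KO, and 1.41, 1.21 and 1.98 CPM in siCtrl against 1.19, 2.00 and 0.979 CPM in siJag1. Both pairs overlapped (log2 fold changes −0.24, SE 0.449, and 0.13, SE 0.362, edgeR adjusted p = 0.917 and 0.984).

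PTGS1, PTGER2 and HPGD were thus the 3 of 8 members whose rescue and control libraries did not overlap, all lower in the rescue, against 32.5% of all genes in either direction and 16.0% lower, and a count of 3 adds little to that background. They were not called by edgeR on the 6 libraries but were called lower in the rescue by DESeq2 (adjusted p = 0.00260, 0.00187 and 0.0284) and in 1 fit of all 18 libraries (0.00923, 0.00695 and 0.0205). DESeq2 called 12.3% of all genes in that comparison (7.74% lower) and the fit of 18 libraries 16.7% (10.7% lower). Their adjusted p over the other settings than leaving out a library was at most 0.110. Without Jag1KO + ctrl replicate 3 all 3 were called (adjusted p = 0.00687, 0.00657 and 0.00818) and 4 of 8 members in all, PTGS2 included, but so were 29.0% of all genes. In that group replicates 1 and 2 had growth indices of 5.72 and 6.09 and the rescue libraries 4.18, 5.02 and 4.23. The control library of low growth index, replicate 3, held 2.05 CPM of PTGS1, 1.38 CPM of PTGER2 and 1.81 CPM of HPGD, nearer to the rescue libraries than its partners were but still above them.

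The order of the group means of PTGES ran Jag1WT, siCtrl, siJag1, Jag1KO + rescue, Jag1KO + ctrl, Jag1KO, and only siCtrl and siJag1 were neighbors without overlap. For PTGS2 the order ran from Jag1KO + rescue (4053 CPM) to Jag1KO + ctrl (1974 CPM), with overlap between all neighbors. PTGES was also compared between groups with no planned change of JAG1. Neither of these control comparisons sets cloned against uncloned cells, and the part of handling in the PTGES values was not tested. siCtrl against Jag1WT gave a log2 fold change of −0.06 (SE 0.223, edgeR adjusted p = 1.00), in which 0.0% of 12797 genes were called by edgeR (176 at an unadjusted p under 0.05), and Jag1KO + ctrl against Jag1KO gave 0.45 (SE 0.336, edgeR adjusted p = 0.770). Both share libraries with the comparisons above.

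Over the 18 libraries, PTGES was most like WNT5A (Pearson r of log2(CPM + 1) = 0.922), CTSB (0.910), RAB31 (0.898), BMP1 (0.896) and SMAD3 (0.896), and PTGS2 was most like IL1A (0.956), SLC30A7 (0.936), BCAT1 (0.935), CARS1 (0.934) and TOM1L1 (0.934), among 12750 genes. JAG1 had an r of 0.545 with PTGES, and 6.27% of the genes had a higher one. These are descriptions over libraries that share groups, depth and growth state. IL1A encodes the cytokine interleukin-1 alpha, a known inducer of PTGS2.

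The rest of the pathway was read from gene lists. The list of genes around the release of arachidonic acid included ANXA1 and PLA2R1, which do not release it themselves. Of its genes, 11 were tested between Jag1WT and Jag1KO and in the rescue and 9 in the knockdown, and 0 were called in each. Their median log2 fold changes were 0.01, −0.12 and −0.01, beside medians of −0.01, 0.00 and −0.01 over all genes. PLA2G4A, the cytosolic phospholipase A2 gene, measured 32.9, 33.3 and 25.6 CPM in the parental cells and 28.0, 29.7 and 25.1 CPM in Jag1KO. Like PTGS2 it was lowest in Jag1KO + ctrl replicates 2 and 1 (9.77 and 18.9 CPM). Of the other prostanoid synthases 5 were tested and 0 called in the 3 comparisons, with medians of −0.05, −0.56 and −0.13. Among them TBXAS1, thromboxane synthase, chosen after its values were seen, measured 10.6, 23.6 and 19.2 CPM in Jag1KO + rescue and 64.4, 63.0 and 36.6 CPM in Jag1KO + ctrl (log2 fold change −1.62, SE 0.333, edgeR adjusted p = 0.104). Its log2 fold change was smaller between Jag1WT and Jag1KO (−0.16, SE 0.307, edgeR adjusted p = 0.923) and in the knockdown (−0.55, SE 0.289, edgeR adjusted p = 0.970).

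Other prostanoid receptors were scarce. PTGER1 and PTGIR had reads in 3 libraries and 1 library, PTGER3 stayed at or under 0.600 CPM, and PTGFR, the prostaglandin F receptor gene, lay between 0.669 and 3.06 CPM. The 2, 1 and 2 genes of this list that were tested were not called, with medians of 0.75, −0.34 and 0.18. They were PTGFR and, in the knockout and the knockdown, PTGFRN, which is not itself a prostanoid receptor gene. PTGFR alone had log2 fold changes of 0.48 (SE 0.436), −0.34 (SE 0.519) and 0.30 (SE 0.262). The uptake carrier gene SLCO2A1 stayed at or under 0.522 CPM, and of its list of transport and inactivation genes 4 were tested and 0 called, with medians of 0.02, 0.18 and −0.02. Of the lipoxygenase arm, the other route for arachidonic acid, 4 genes were tested and 0 called, with medians of −0.61, 0.97 and 0.33. ALOX12B, an epidermal lipoxygenase gene chosen after its values were seen, measured 0.694, 1.65 and 1.43 CPM in Jag1WT and 3.72, 7.49 and 6.21 CPM in Jag1KO (log2 fold change −2.21, SE 0.396, edgeR adjusted p = 0.0619). It had the other sign in the rescue (0.59, SE 0.686, edgeR adjusted p = 0.562) and in the knockdown (0.55, SE 0.323, edgeR adjusted p = 0.970). Jag1KO + ctrl, of the same genotype as Jag1KO, held 0.600, 0.659 and 3.13 CPM of it. ALOXE3 and ALOX5AP, also chosen after their values were seen, went opposite ways between Jag1WT and Jag1KO. Their log2 fold changes there were −1.39 (SE 0.369) and 0.97 (SE 0.207), with edgeR adjusted p of 0.244 and 0.112. In the rescue they were 1.47 (SE 0.604) and 1.36 (SE 0.718), and in the knockdown 0.10 (SE 0.296) and 0.70 (SE 0.355), all uncalled.

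Genes known to regulate PTGS2 and PTGES gave 16 tested and 0 called in each comparison, with medians of −0.03, 0.51 and 0.22. Most encode cytokines and transcription factors, but ELAVL1 and ZFP36 encode RNA-binding proteins, and the list was not limited to inducers. In the rescue 15 of the 16 had a log2 fold change above 0, and without Jag1KO + ctrl replicate 3 as many as 10 of them were called higher, in a fit that called 14.0% of all genes higher and 29.0% in either direction. In Jag1KO + ctrl against Jag1KO, which shares the control libraries, 0 of the 16 were above 0, with a median of −0.32. Genes induced by cAMP, downstream of EP2 and EP4, gave 10, 11 and 10 tested and 0 called, with medians of −0.08, 0.54 and 0.12. Of the Notch genes looked at as a check, 5, 6 and 5 were tested, and JAG1 was the 1 called in the knockout and in the rescue (log2 fold changes 1.71 and 2.22, edgeR adjusted p = 0.0162 and 0.0229) but was not called in the knockdown (1.68, adjusted p = 0.111). HES1, a Notch target gene chosen after its values were seen, had log2 fold changes of 2.99, 3.79 and 1.60 in the same order and was not called (edgeR adjusted p = 0.0530, 0.104 and 0.125). Beside these edgeR counts, DESeq2 called 3 lipoxygenase genes and 1 cAMP-induced gene between Jag1WT and Jag1KO and 1 other synthase, 1 of the PTGS2 and PTGES regulators and 2 cAMP-induced genes in the rescue, and limma called none of the genes of these lists outside the Notch genes. DESeq2 called 1.82% of all genes between Jag1WT and Jag1KO and 12.3% in the rescue. The RNA of HES1 in the rescue libraries (22.4, 4.88 and 9.97 CPM) overlapped that in Jag1WT (13.4, 11.2 and 22.3 CPM), whereas that of PTGES did not.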

How the data were processed

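The authors sequenced stranded poly(A) libraries and counted uniquely mapped reads per gene on hg38. The submitters' processing notes name featureCounts, MultiQC 1.5, R 3.6.1 and edgeR 3.28.0, and whether counting used the strand is not given in the sources used here. The deposited read counts of the authors are whole and not normalized. The deposited CPM values are, as a signal per gene, the authors' counts over the TMM-scaled library size, which was checked on the values. The deposited RPKM values of the authors were used only for gene lengths, and 3 columns of that table were not used. Rows without a symbol (at most 0.0442% of a library's counts) were left out.

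Each comparison was fitted with edgeR 4.0.16 (R 4.3.3) on the deposited counts of its 6 libraries, with TMM, for genes over 1 CPM in at least 3 of them. Interactions took 12 libraries and genes over 1 CPM in at least 6, with a call at an adjusted p under 0.05 alone. The study tested log2(CPM + 1) with ROTS, which was not used here. limma 3.58.1 on log2(CPM + 1), DESeq2 1.42.0 and the other settings are given at the end. The SE of an edgeR log2 fold change is its size divided by the square root of F. The scripts were tested on simulated data. Gene positions are from GENCODE 44 and promoters from RefSeq. Growth genes are the S and G2/M lists of Seurat 5.3.0. Limits and floors from reads cover counting error only.

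The text names every member, list genes called between groups with high and low JAG1 (at most 6 a list), PLA2G4A, SLCO2A1, PTGER1, PTGER3, PTGFR and PTGIR, and the 5 genes most like PTGES and PTGS2. The members and gene lists were chosen with earlier results of these data known.

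Same-numbered libraries deviated together in the knockdown comparison (correlations of deviations from the group means 0.543, 0.522 and 0.264) and between the siCtrl and parental groups (0.595, 0.713 and 0.210). The numbers of these groups were therefore read as pairs from the data. The main fits left the replicate number out, and the replicate block is given as another setting. The other comparisons had a correlation at or under −0.0137 for at least 1 number. No 2 replicates agreed within sampling noise (chi-square per degree of freedom 7.37 to 107).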

Additional observations from a re-analysis of the deposited data

How the results depend on the processing

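Direction and side of the threshold were kept in 258 of 268 fits of member fold changes under other settings, 10 gained a call and 0 turned. With 1 library left out they were kept in 222 of 258 fits, in 23 an uncalled member turned sign, 8 gained a call and 5 lost one, all 5 being PTGES between Jag1WT and Jag1KO.

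The number of members called between Jag1WT and Jag1KO was 1 and changed in 6 of 6 fits with 1 library left out, to 0 in 5 of them and 2 in 1. In the rescue it was 3 with DESeq2 and in 1 fit of all 18 libraries, and 0 to 4 with 1 left out. In the knockdown DESeq2 called 1. In Jag1KO + ctrl against Jag1KO it ran from 0 to 1 with 1 left out. For the knockout less the knockdown the replicate block gave 1, and for the knockout less the rescue no filter and the replicate block gave 1 each and leaving out 1 library 0 to 2. For the knockdown less the rescue it ran from 0 to 1, the member being HPGD without Jag1KO + ctrl replicate 3.

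All genes called between Jag1WT and Jag1KO (92) became 157 with no filter, 282 with the replicate block, 235 with DESeq2 and 147 in the fit of 18 libraries, and 8 to 952 with 1 library left out. In the rescue 1 became 2 with limma on log2(CPM + 1) or log2(CPM + 0.1) and with no filter, 3 with the block, 1583 with DESeq2 and 2144 in the fit of 18, and 0 to 3726 with 1 left out, the most without Jag1KO + ctrl replicate 3. In the knockdown 2 became 0 with limma at either pseudocount, 8 with no filter, 4 with the block, 24 with DESeq2 and 7 in the fit of 18, and 0 to 4 with 1 left out. In Jag1KO + ctrl against Jag1KO 0 became 13 with DESeq2 and 1 in the fit of 18, and 0 to 310 with 1 left out. In siCtrl against Jag1WT the block gave 1. The cause was not tested. Scaling by RLE size factors changed none of these counts by over 1.5 times.

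Uncalled log2 fold changes that turned sign when 1 library was left out had these ranges. Jag1WT against Jag1KO: PTGS2 −0.14 to 0.26 and HPGD −0.58 to 0.23. Rescue: PTGES2 −0.018 to 0.17 and PTGES3 −0.052 to 0.11. Knockdown: PTGS2 −0.10 to 0.46, PTGES3 −0.23 to 0.030, PTGER4 −0.69 to 0.26 and HPGD −0.090 to 0.49. Jag1KO + ctrl against Jag1KO: PTGS1 −0.41 to 0.31. siCtrl against Jag1WT: PTGS2 −0.066 to 0.17, PTGES −0.30 to 0.15 and HPGD −0.22 to 0.36. Few reads limited what could be seen for PTGS1, PTGER2 and HPGD, and PTGIS, with at most 1 read per library, could not be tested.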
